A study of Mus musculus with 24 samples.

Results

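Blood B cells and blood T cells of the same recipient mice were compared by the DNA barcodes they carried. The comparison used 6 of the 24 samples in the series, 3 of B cells and 3 of T cells, 1 of each from every mouse, and they were chosen by their labelled cell type and mouse number. Haematopoietic stem cells taken from C57BL/6 bone marrow had been infected in culture, 5 days after plating, with pBC008, a lentivirus library in which each virus carries a barcode. Infected cells (GFP+ and lineage-negative with Sca1 and cKit, the LSK phenotype) were sorted 4 days later. Each irradiated male CD45.2 recipient (9 Gy, aged 5 weeks) received 20000 of them with 100000 rescue cells, lineage-negative cKit+ Sca1- cells that were CD45.2+, and peripheral blood was taken 2 months later. The B and the T cell samples are labelled C57BL/6J, with no other allele or treatment named, and by their labels they differ only in the cell type sorted. The same mice gave blood monocytes and neutrophils, cardiac macrophages with high (Ccr2hi) or low Ccr2 (Ccr2lo) and renal macrophages named M1 and M2, which are used below only as partners of the B and T cells.

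B and T lymphocytes both descend from haematopoietic stem cells. B cells are made in the bone marrow, while T cells are made in the thymus, which is seeded by small numbers of progenitors from the marrow and in which the survivors of receptor selection multiply. A barcode written into the genome of a stem cell passes to all its progeny. A sequence found in both B and T cells of a mouse is therefore taken to mark cells whose common ancestor was infected, or sister cells of one infected cell. Whether it does was not tested for any barcode. A barcode found in 1 of the 2 populations marks an ancestor whose barcoded progeny were read there alone.

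What was counted was a read of a 52-base barcode, amplified from genomic DNA. No genes were measured, so marker genes could not be used to check the labelled cell types, and the labels used here give neither the gates nor the number of cells sorted. Cells of the host and of the rescue graft have no barcode and give no reads. Shares refer to amplified barcode copies and not to cells, and a smaller barcoded population and a smaller number of sorted cells cannot be told apart.

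In 82.2% to 96.4% of the reads of the 6 samples, G or C alternated with A or T along the barcode. Of the 30 barcodes named by rule (the leaders of each lymphoid sample and the most one-sided and most even barcodes of each mouse), 28 followed this pattern. Any pair of them within a mouse differed at 18 to 35 of the 52 bases. They are printed 5′ to 3′, with a capital at a base that breaks the alternation. Names give the mouse, then B or T for a leader in that population with its rank, Bmost or Tmost for the most one-sided, and even for the barcode with the closest shares. The first set shows the barcodes that led each sample, since the dominance of a sample rests on them. In mouse 2, m2B3 led the T cells.

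m1B1: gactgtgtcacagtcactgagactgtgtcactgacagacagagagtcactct
m1T1: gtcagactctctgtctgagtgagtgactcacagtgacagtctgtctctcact
m2B1: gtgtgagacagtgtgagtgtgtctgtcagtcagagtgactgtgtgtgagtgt
m2B3: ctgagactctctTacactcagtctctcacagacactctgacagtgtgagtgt
m3B1: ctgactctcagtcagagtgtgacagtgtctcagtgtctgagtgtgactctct
m3T1: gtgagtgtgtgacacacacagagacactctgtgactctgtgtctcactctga

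The second set shows the most one-sided barcodes of each mouse, on which the separation of the lineages is easiest to see. In mouse 3 the most T-sided barcode was also the second in T cells and is named m3T2.

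m1Bmost1: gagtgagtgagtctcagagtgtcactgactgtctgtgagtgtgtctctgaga
m1Tmost1: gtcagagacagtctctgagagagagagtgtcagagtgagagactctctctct
m2Bmost1: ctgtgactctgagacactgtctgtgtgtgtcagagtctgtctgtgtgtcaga
m2Tmost1: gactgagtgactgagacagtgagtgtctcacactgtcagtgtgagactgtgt
m3Bmost1: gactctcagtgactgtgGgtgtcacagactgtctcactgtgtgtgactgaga
m3T2: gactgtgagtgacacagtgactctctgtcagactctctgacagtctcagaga

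The third set shows barcodes read at nearly the same share in both populations of a mouse.

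m1even: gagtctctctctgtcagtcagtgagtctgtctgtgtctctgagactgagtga
m2even: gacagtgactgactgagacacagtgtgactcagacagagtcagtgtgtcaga
m3even: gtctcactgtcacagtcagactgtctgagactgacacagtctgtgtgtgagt

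The B cell samples of mice 1, 2 and 3 held 10856141, 12464665 and 10626349 reads. The T cell samples held 9757036, 11087224 and 12675345 reads, and the series as a whole ranged between 6808221 and 15745444. At this depth the 95% Wilson interval of a sample's leading barcode was 0.0286 to 0.0396 percentage points wide. A count of 0, taken as under 3 reads, allowed a share of up to 2.37e-05% to 3.07e-05%. The labels name no molecular identifiers in the PCR, so both limits cover counting error only. A barcode was counted as present at 0.01% of a sample's reads, which is 976 to 1268 reads here.

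The T cell library of mouse 2 stood apart in that it held the leading barcodes of T cells of mouse 3 at a nearly constant fraction. The 17 barcodes at 1% or more in T cells of mouse 3 were all read in T cells of mouse 2, at a median of 0.957% of their mouse 3 share (quartiles 0.949% and 1.01%, lowest 0.897%). Over the other 95 of 96 pairings of a lymphoid sample with a sample of another mouse, the median was 0.0251% to 0.416%. How these reads came there was not tested. The number of barcodes, their sizes, the sharing, the private barcodes, the T-sided count and the overlaps are therefore also given without barcodes whose share in a sample of another mouse was 100-fold higher or more. This step removed 1.44% of the reads of T cells of mouse 2 and 0.431% to 0.649% of the reads of the other 5 lymphoid samples. Its limit, 1% of the share in the other mouse, lies between the median and the upper quartile above. Some barcodes of mouse 3 can therefore remain in T cells of mouse 2 after it.

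B cells held more barcodes than T cells in every mouse. The B cells of mice 1, 2 and 3 had 475, 296 and 366 barcodes at 0.01% of reads or more, and the T cells had 137, 143 and 90. The lowest B cell count was above the highest T cell count. The means were 379 ± 90.2 in B cells and 123 ± 29.0 in T cells (SD, n = 3 each), and the ratio of geometric means was 3.08 (exact two-sided permutation p = 0.1, Benjamini-Hochberg adjusted p = 0.229 over 16 tests). With 3 samples against 3 this exact test cannot go below p = 0.1, so in exact tests of this size no difference could pass 0.05, and differences are described by their size, by the overlap of the groups and by how many mice show them. Without barcodes of other mice the counts were 469, 289 and 362 in B cells and 131, 119 and 80 in T cells, a ratio of 3.401. The ratio depended on the level that counts as present and was 1.69 at 0.001% of reads and 2.01 at 0.1% (exact p = 0.1 each).

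The additional barcodes of B cells were small. Between 0.01% and 0.1% of reads, B cells had 320, 178 and 239 barcodes, and T cells had 44, 72 and 47. Between 0.1% and 1%, B cells had 138, 91 and 110, and T cells had 59, 40 and 26. At 1% or more the order was not the same: B cells had 17, 27 and 17 barcodes and T cells 34, 31 and 17. Those barcodes took 45.8%, 63.8% and 56.3% of B cell reads and 70.7%, 80.6% and 87.2% of T cell reads, so the share in such large barcodes was lower in B cells in each mouse and the groups did not overlap. Without barcodes of other mice, T cells of mouse 2 had 51, 37 and 31 barcodes in these bands, and the barcodes at 1% or more held 81.8% of their reads.

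The effective number is the number of equally large barcodes that would be as diverse as the sample, here computed from the Shannon entropy by taking its exponential. It was 146, 91.9 and 95.9 in B cells and 72.6, 56.2 and 21.8 in T cells of mice 1, 2 and 3. The B cells lay above the T cells in all 3 mice without overlap of the groups, by 2.02-fold, 1.64-fold and 4.40-fold. The means were 111 ± 30.4 and 50.2 ± 25.9 for B and T cells (SD, n = 3 each, ratio of geometric means 2.44, exact two-sided permutation p = 0.1, adjusted p = 0.229). The inverse Simpson index, which weights large barcodes more, gave a ratio of 1.63 (exact p = 0.5), and without barcodes of other mice the ratio of effective numbers was 2.49.

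**Figure D1:**
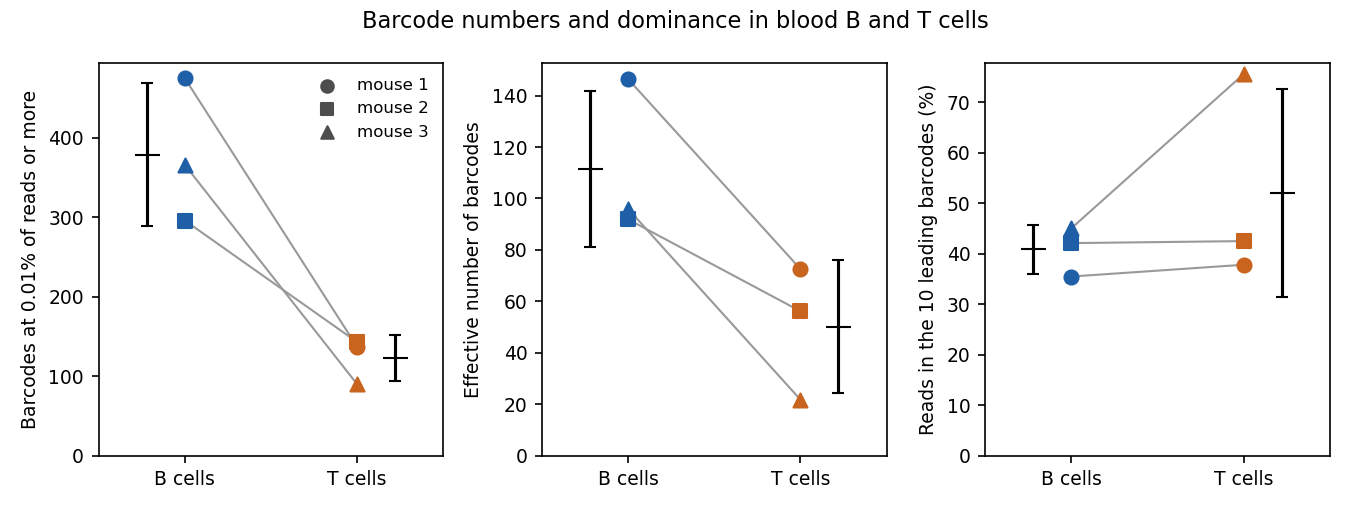
Number of barcodes at 0.01% of reads or more (left), effective number of barcodes (middle) and share of reads in the 10 leading barcodes (right, %) in B cells and T cells. Symbols are mice, grey lines join samples of the same mouse, and the black marks are the mean and SD (n = 3); B cells lie above T cells in all 3 mice in the left and middle plots, while on the right T cells of mouse 3, at 75.6%, stand apart.

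At the top of the distributions the 2 lineages differed less. The leading barcode held 8.41%, 7.14% and 9.85% of B cell reads and 7.32%, 9.51% and 15.3% of T cell reads, a mean difference of -2.23 percentage points (exact two-sided permutation p = 0.6, adjusted p = 0.64), or -0.647 without mouse 3. The 10 leading barcodes held 35.5%, 42.1% and 45.1% of B cell reads and 37.8%, 42.5% and 75.6% of T cell reads. B minus T was -2.34 and -0.403 percentage points in mice 1 and 2, and -30.6 in mouse 3. The mean difference was -11.1 percentage points (exact two-sided permutation that ignores the pairing by mouse, p = 0.6, adjusted p = 0.64) and was -1.37 without mouse 3. The difference was negative in all 3 mice, and the exact paired sign flip gave p = 0.25, the smallest that 3 pairs allow.

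The number of barcodes needed to reach a given share of reads shows where the curves part. To reach 50% of reads took 23, 16 and 13 barcodes in B cells and 18, 13 and 4 in T cells (ratio 1.72, exact two-sided permutation p = 0.5, adjusted p = 0.615). To reach 90% took 201, 104 and 132 in B cells and 64, 46 and 21 in T cells (ratio 3.55, exact p = 0.1). In mice 1 and 2 the curves of the lineages were close up to 50% of reads and parted along the tail.

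**Figure D2:**
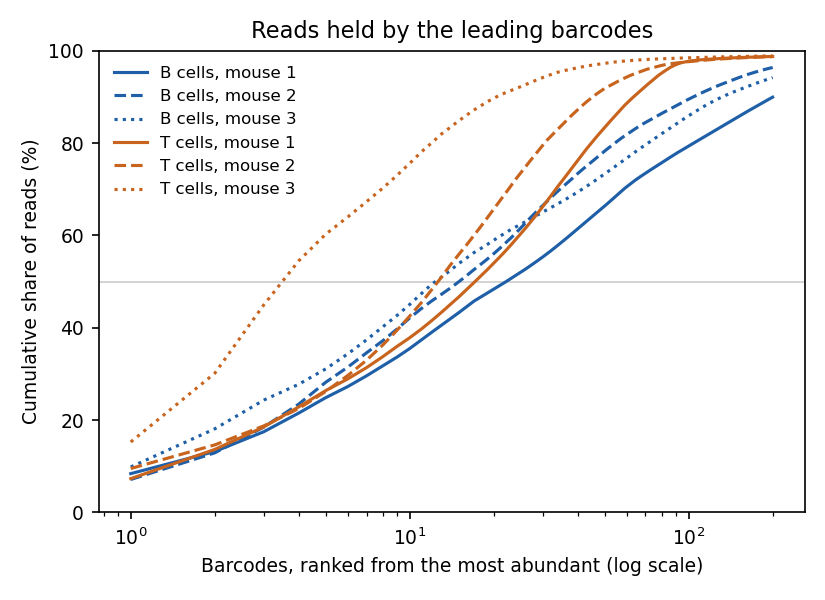
Cumulative share of reads (%) held by the barcodes of a sample, ranked from the most abundant, on a log axis. Blue lines are B cells and orange lines T cells, with a line style per mouse; the T cells of mouse 3 reach the grey 50% line with 4 barcodes, and the B cell curves lie below the T cell curves of the same mouse beyond it.

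Most T cell barcodes were present in B cells, and most B cell barcodes were not present in T cells. In mouse 1, 134 barcodes were present at 0.01% or more in both, 341 in B cells alone and 3 in T cells alone. The same classes counted 110, 186 and 33 in mouse 2, and in mouse 3 they were 76, 290 and 14. The barcodes in both made up 28.2%, 37.2% and 20.8% of the B cell barcodes and 97.8%, 76.9% and 84.4% of the T cell barcodes. T cells had 137, 143 and 90 barcodes present in all, against 475, 296 and 366 in B cells. Most B cell barcodes of each mouse could therefore not have been in both, so their low percentages largely restate the difference in numbers. Without barcodes of other mice, those in T cells alone were 3, 16 and 8.

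Weighted by reads, the same asymmetry was seen. Barcodes also present in T cells held 69.1%, 74.0% and 67.2% of B cell reads. Barcodes also present in B cells held 98.0%, 96.4% and 97.5% of T cell reads. The means were 70.1% ± 3.50 for B cells and 97.3% ± 0.847 for T cells (SD, n = 3 each), a difference of -27.2 percentage points with no overlap of the groups (exact two-sided permutation p = 0.1, adjusted p = 0.229). It was -12.1 percentage points with presence set at 0.001% of reads, -14.0 with presence at 0.1%, and -27.6 without barcodes of other mice.

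A barcode was called private where it held 0.1% or more of reads in 1 lymphoid sample and under 0.01% in the other of the mouse. In B cells 79 of 155, 54 of 118 and 82 of 127 barcodes at 0.1% or more were private, and together they held 19.6%, 19.5% and 23.7% of B cell reads. In T cells 2 of 93, 5 of 71 and 2 of 43 were private, with 0.814%, 1.42% and 0.743% of T cell reads. The ratio of geometric means was 26.0 (exact two-sided permutation p = 0.1, adjusted p = 0.229). Without barcodes of other mice, T cells had 2 private barcodes in each mouse and the ratio was 35.5.

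The private barcodes of B cells were small, with medians of 0.168%, 0.209% and 0.240% of B cell reads and a largest share of 0.689%, 1.35% and 1.499%. None of the private barcodes of either lineage had 0 reads in the other. The B private ones went down to 1.02e-05% in T cells of mouse 1, which is 1 read, and 26, 15 and 44 of them were under 0.001% of T cell reads. No T private barcode was under 0.001% of B cell reads, where their lowest share was 0.00272%.

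The count of private barcodes depends on the size at which it is made. At 1% or more of reads in 1 population and under 0.1% in the other, B cells had 1, 7 and 2 private barcodes and T cells 12, 10 and 3, a ratio of geometric means of 0.339 (exact two-sided permutation p = 0.2). When a barcode had to lie under 5% of its own share in the other population, in place of a fixed level, B cells had 83, 57 and 87 private barcodes and T cells 14, 20 and 9. Under 2% of its own share, the counts were 61, 50 and 74 in B cells and 5, 4 and 6 in T cells.

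Large T cell barcodes were read in B cells down to about the same small fraction of their T cell share. Among the barcodes at 1% or more in T cells (34, 31 and 17), the lowest B cell share was 1.33%, 1.45% and 0.826% of the T cell share. Among those at 1% or more in B cells (17, 27 and 17), the lowest T cell share was 4.43%, 0.174% and 0.613% of the B cell share. In the opposite lineage of the other mice, pooled, the median of the same quantity was 0.0499% to 0.214% of the own share. Single pairings went higher: in T cells of mouse 2, the median was 0.416% for the B cell leaders of mouse 3. For the T cell leaders of mouse 3, a same-lineage pairing outside that range, it was 0.957%. Whether T cells or T cell DNA in the B cell samples give part of the B cell reads of these barcodes was not tested. With 1% of the share in the other lymphoid sample subtracted from every barcode, a step added after the values were seen, the private ratio was 14.5 and the number of barcodes 3.16-fold higher in B cells (exact p = 0.1 each). In mice 1 and 2 the lowest B cell shares, 1.33% and 1.45% of the T cell share, lay above what was subtracted. The step thus left B cell reads of every large T cell barcode there.

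Fold changes within each mouse give the lean of a barcode without the presence level used above. Their classes still depend on the share at which barcodes are included and on the share added. They were taken between shares with 0.01% added, over the 190, 145 and 138 barcodes of mice 1, 2 and 3 at 0.1% or more in either lymphoid sample. With 1 sample of each lineage in a mouse they have no test. Over 4-fold higher in B cells were 100, 79 and 103 barcodes, or 52.6%, 54.5% and 74.6% of those compared. Over 4-fold higher in T cells were 45, 32 and 20, or 23.7%, 22.1% and 14.5%. The remaining 45, 34 and 15 lay within 4-fold. Without barcodes of other mice the T-sided barcodes of mouse 2 were 29. The values nearest to the limit were log2 2.33, 2.03 and 2.08 inside and 1.995, 1.94 and 1.91 outside on the B side. On the T side they were -2.02, -2.07 and -2.19 inside and -1.97, -1.80 and -1.92 outside.

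B-sided barcodes were many and small, and T-sided barcodes few and large. Among barcodes at 0.1% to 1% in their higher lineage, 93 of 146, 63 of 100 and 95 of 111 were B-sided and 23, 16 and 9 T-sided. Among those at 1% or more, 7 of 44, 16 of 45 and 8 of 27 were B-sided and 22, 16 and 11 T-sided, with 15, 13 and 8 within 4-fold. The median share in the higher lineage was 0.201%, 0.299% and 0.263% for B-sided and 0.961%, 0.947% and 1.16% for T-sided barcodes. The majority of barcodes leaned to B cells at the small end, and in mice 1 and 3 more leaned to T cells than to B cells at the large end.

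As a description, the Spearman correlation of B and T shares across the barcodes at 0.1% or more in either was 0.00432 (190 barcodes), 0.0338 (145) and 0.191 (138) in mice 1, 2 and 3. Across those at 0.01% or more in either it was 0.485 (478 barcodes), 0.242 (329) and 0.344 (380). The barcodes of a mouse share its 2 libraries and their depth, and each list leaves out barcodes low in both, so these values depend on where the list ends.

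**Figure D3:**
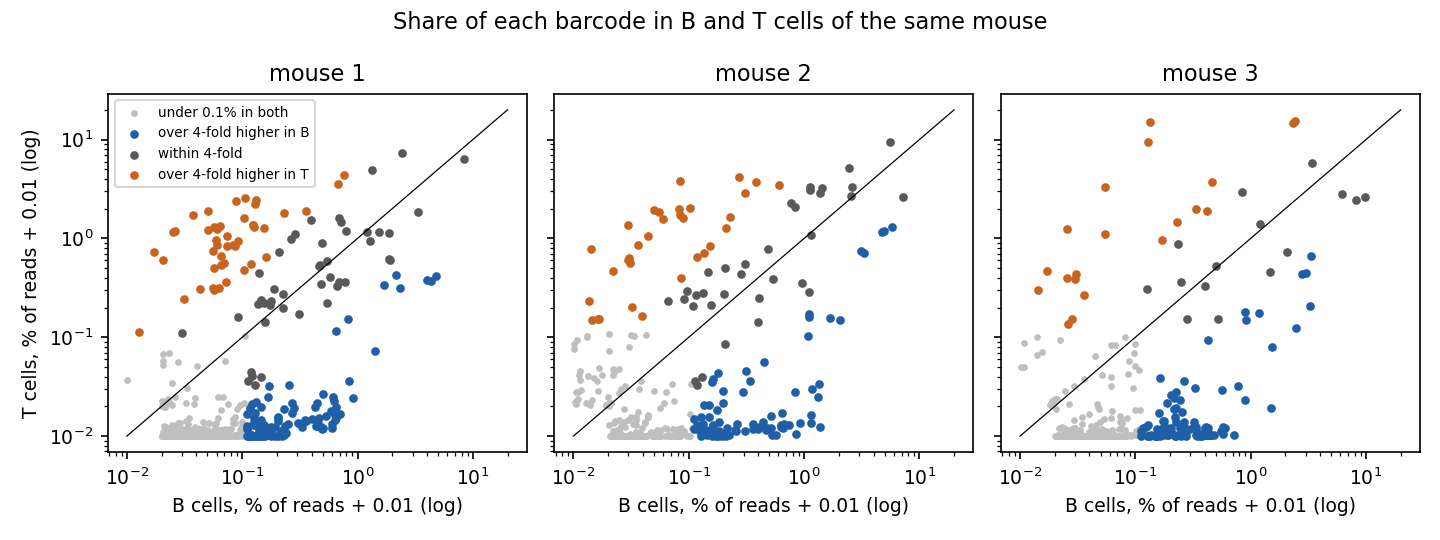
Share of reads of each barcode in B cells (horizontal axis) and in T cells (vertical axis) of the same mouse, in % with 0.01 added, on log axes; the line marks equal shares. Blue points are over 4-fold higher in B cells, orange points over 4-fold higher in T cells, dark grey points within 4-fold, and light grey points under 0.1% in both; the blue points gather at low B cell shares along the lower edge, and the orange ones reach higher shares.

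The leading barcodes of B cells were also read in T cells, at a lower share in most cases. In mouse 1, m1B1 held 8.41% of B cell reads and 6.32% of T cell reads, and stood first in B cells and second in T cells. The next 2, m1B2 and m1B3, held 4.79% and 4.30% of B cell reads, and in T cells they held 0.403% and 0.362%. They differed from each other at 21 bases, and their ratio was 0.877 to 1.11 in all 8 populations of the mouse. Both were larger in monocytes, at 8.11% and 8.96%, than in either lymphoid population.

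In mouse 2 the B cell leader m2B1 held 7.14% of the reads in B cells and 2.64% in T cells, but 0.176% of monocyte reads. The barcode m2B2 held 5.77% of the reads in B cells and 1.31% in T cells, with 3.76% of monocyte reads. The barcode m2B3, at rank 3 in B cells, held 5.60% there and led the T cells with 9.51%. It was also large in monocytes, at 10.0%, and in neutrophils, at 10.4%, and so was a leader in all 4 blood populations.

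In mouse 3 the B cell leaders m3B1, m3B2 and m3B3 held 9.85%, 8.25% and 6.24% of B cell reads, and 2.61%, 2.46% and 2.78% of T cell reads. All 3 were thus 2.24-fold to 3.78-fold higher in B cells. In monocytes they differed more, with 0.459%, 9.65% and 4.12%.

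The leaders of T cells were of different kinds in different mice. In mouse 1, m1T1 held 2.41% of the reads in B cells and 7.32% in T cells, and m1T3 held 1.32% and 4.88%. In mouse 2, m2T2 held 2.42% of the reads in B cells and 5.11% in T cells, while m2T3 held 0.264% and 4.12%. These barcodes lay between 2.11-fold and 15.6-fold higher in T cells.

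The T cells of mouse 3 rested on 4 barcodes. The barcodes m3T1 and m3T3 held 2.40% and 2.32% of B cell reads and 15.3% and 14.8% of T cell reads. Their ratio stayed between 0.951 and 1.06 in all 8 populations of the mouse, although they differed at 24 bases. Whether such a pair marks 1 founder with 2 integrations was not tested. The other 2, m3T2 and m3Tmost2, held 0.123% and 0.119% of B cell reads and 14.9% and 9.51% of T cell reads, 121-fold and 79.7-fold higher in T cells. In monocytes they held 0.313% and 0.223%.

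The most B-sided barcodes were nearly without T cell reads. In mouse 2, m2Bmost1 held 1.35% of B cell reads (168822 reads) and 0.00235% of T cell reads (261 reads), a 575-fold difference. It was also low in monocytes, at 0.000445%, and higher in cardiac Ccr2hi and Ccr2lo macrophages, at 0.254% and 0.330%. In mouse 3, m3Bmost1 held 1.499% of the reads in B cells and 0.00919% in T cells. The barcode m3Bmost2 held 0.7004% of B cell reads (74424 reads) and 0.000284% of T cell reads (36 reads). In mouse 1, m1Bmost1 and m1Bmost2 both held 0.597% of B cell reads, and in T cells they held 0.00221% and 0.00312%. All of these were under 0.1% in monocytes and neutrophils, and m3Bmost1 reached 1.26% in Ccr2lo macrophages.

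The most T-sided barcodes were low in B cells. In mouse 1, m1Tmost1 held 0.0276% of the reads in B cells and 1.72% in T cells, and m1Tmost2 0.0162% and 1.19%. In mouse 2, m2Tmost1 held 0.00410% of B cell reads (511 reads) and 0.779% of T cell reads (86351 reads), a 190-fold difference, and m2Tmost2 0.0195% and 1.35%. In the other 6 populations of their mouse the highest share of these 4 was 0.1005%, of m1Tmost2 in monocytes.

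The most even barcodes were m1even, with 1.21% of the reads in B cells and 1.16% in T cells, m2even, with 1.14% and 1.08%, and m3even, with 0.489% and 0.520%. In monocytes, m1even and m2even held 0.101% and 0.0625%, far below their lymphoid shares, while m3even held 1.42%. Even barcodes thus occurred with low as well as with high monocyte shares.

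The barcodes classed by their lymphoid fold were then followed into the other 6 populations, whose reads the classes did not use. The B-sided ones held 33.9% ± 9.42 of monocyte reads and 33.0% ± 9.76 of neutrophil reads. The T-sided ones held 5.49% ± 4.50 of monocyte reads and 5.32% ± 5.42 of reads in neutrophils, and those within 4-fold held 48.0% ± 13.6 and 49.1% ± 14.0 (SD, n = 3 each). By mouse, monocyte reads were 35.4%, 23.9% and 42.5% in B-sided barcodes against 2.84%, 10.7% and 2.96% in T-sided ones. B-sided barcodes were above T-sided ones in all 3 mice without overlap, and there were also more of them, as given above.

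The monocyte reads of B-sided barcodes came from few of them. The barcodes at 1% or more in monocytes numbered 8, 6 and 6 among the B-sided, and they held 28.9%, 19.1% and 40.3% of monocyte reads. By contrast, the median B-sided barcode held 0.0122%, 0.0151% and 0.01003% of monocyte reads, below the median T-sided barcode with 0.0336%, 0.0312% and 0.0223%. B-sided barcodes were also the smaller in their own lineage, so these medians do not compare barcodes of equal size. The mean of the monocyte and neutrophil shares was also set against the higher lymphoid share of each barcode. It was over 4-fold lower for 86 of 100, 65 of 79 and 95 of 103 B-sided barcodes. The same held for 44 of 45, 29 of 32 and 20 of 20 T-sided ones, and for 29 of 45, 21 of 34 and 8 of 15 within 4-fold. The T-sided class held 0, 2 and 0 barcodes at 1% or more in monocytes. Read from the monocyte side, of the 19, 18 and 17 barcodes at 1% or more there, 8, 6 and 6 were B-sided, 11, 10 and 11 within 4-fold and 0, 2 and 0 T-sided. Among all barcodes compared, 52.6%, 54.5% and 74.6% were B-sided, 23.7%, 23.4% and 10.9% within 4-fold and 23.7%, 22.1% and 14.5% T-sided. Both one-sided classes thus made up a smaller part of the barcodes at 1% or more in monocytes than of all those compared, and the class within 4-fold a larger part. Together these monocyte leaders held 35.7%, 38.0% and 28.8% of B cell reads and 14.8%, 33.5% and 13.6% of T cell reads.

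In the tissue macrophages the classes lay closer. B-sided barcodes held 19.4% ± 4.25 of Ccr2hi, 19.3% ± 4.08 of Ccr2lo and 17.3% ± 2.63 of M2 reads, and T-sided ones 7.63% ± 2.01, 6.86% ± 1.51 and 5.84% ± 1.63 (SD, n = 3 each). The renal M1 samples were close to the blood, with 33.9% ± 9.93 of reads in B-sided and 4.09% ± 5.36 in T-sided barcodes. Most barcodes of every class were present in Ccr2lo macrophages: 94 of 100, 75 of 79 and 97 of 103 B-sided, 42 of 45, 26 of 32 and 20 of 20 T-sided, and 44 of 45, 32 of 34 and 15 of 15 within 4-fold. Present in monocytes were 58, 45 and 52 of the B-sided, 36, 24 and 13 of the T-sided and 42, 29 and 15 of those within 4-fold, a lower share for B-sided barcodes than for the other classes in each mouse. Presence at a fixed level also depends on size, and the B-sided barcodes had the lowest median share in their higher lineage.

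**Figure D4:**
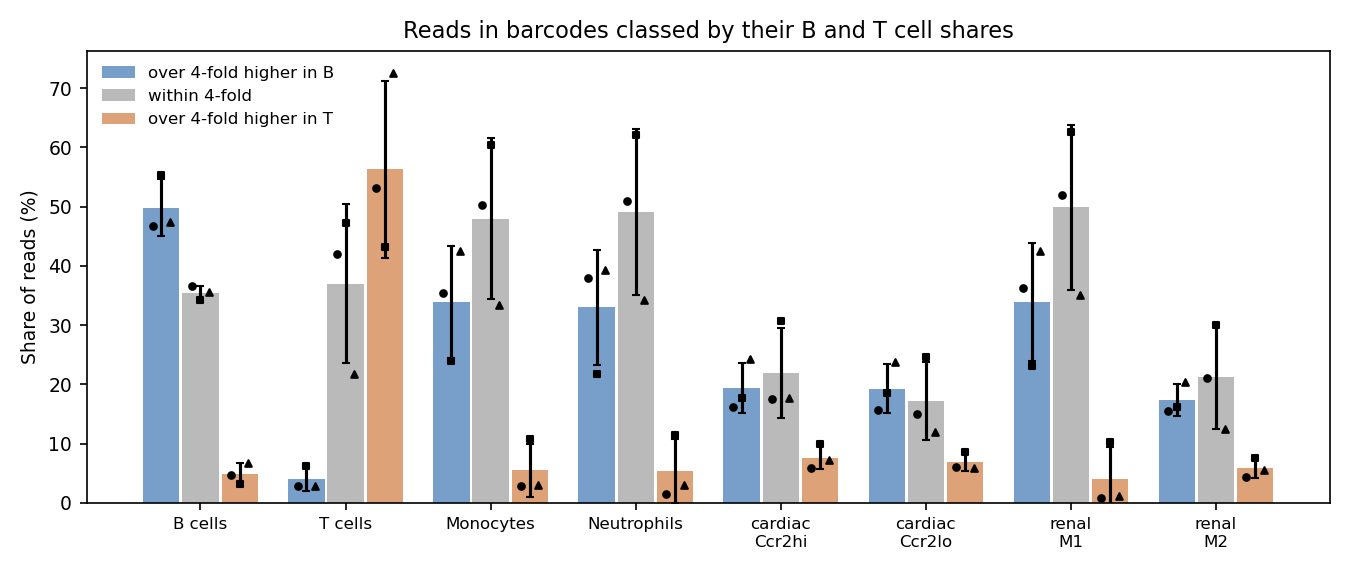
Share of reads (%) in barcodes over 4-fold higher in B cells (blue), within 4-fold (grey) and over 4-fold higher in T cells (orange), in each of the 8 populations. Bars are means and lines SD over 3 mice, and the points are the mice (circle 1, square 2, triangle 3); the B and T cell bars follow from how the classes were made, and in monocytes the blue bar stands at 33.9% and the orange one at 5.49%.

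Private barcodes were looked up in the same populations. Of the 79, 54 and 82 barcodes private to B cells, 50, 27 and 46 were present in monocytes or neutrophils and 75, 52 and 80 in at least 1 of the 4 macrophage samples. Those found in none of these were 2 in each mouse. Of the 2, 5 and 2 private to T cells, 1 in each mouse was present in monocytes or neutrophils, and 2, 3 and 2 in macrophages. The share found in blood myeloid cells was 56.5% ± 6.65 for B private and 40.0% ± 17.3 for T private barcodes (exact two-sided permutation p = 0.3, adjusted p = 0.4). The share found in macrophages was 96.3% ± 1.31 and 86.7% ± 23.1 (SD, n = 3 each, exact p = 1). With so few T private barcodes these shares say little, and both differences changed sign under other settings.

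The overlap of 2 samples, in which the smaller of the 2 shares of each barcode is summed, was higher for B cells than for T cells with each of the other 6 populations in all 3 mice. With monocytes it was 0.395, 0.408 and 0.338 for B cells and 0.219, 0.380 and 0.196 for T cells, a mean difference of 0.116 (exact two-sided permutation p = 0.2, adjusted p = 0.356). In mouse 2 the difference was 0.0282, against 0.176 in mouse 1 and 0.143 in mouse 3. With neutrophils and renal M1 macrophages the mean differences were 0.101 and 0.107 (exact p = 0.3 each, adjusted p = 0.4), and mouse 2 again showed little, 0.00780 and 0.0120. With renal M2 and both kinds of cardiac macrophage (Ccr2hi and Ccr2lo) the B cells lay above the T cells without overlap of the groups, by 0.139, 0.155 and 0.153 (exact p = 0.1 each, adjusted p = 0.229). Without barcodes of other mice the 6 mean differences lay between 0.1003 and 0.156.

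The direction of the difference in overlap with monocytes, neutrophils and M1 macrophages depended on the index used. By the Jaccard index, which counts barcodes present in both over barcodes present in either and ignores their size, B minus T was -0.0712 for monocytes, -0.187 for neutrophils and -0.0902 for M1 macrophages (exact p = 0.1 each). For Ccr2hi, Ccr2lo and M2 macrophages it was 0.178, 0.170 and 0.168 (exact p = 0.1 each). The index cannot exceed the smaller number of barcodes over the larger, so it also follows these numbers. The first 3 populations had 94 to 229 barcodes present and the other 3 had 893 to 1361. B cells had 296 to 475 and T cells 90 to 143.

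**Figure D5:**
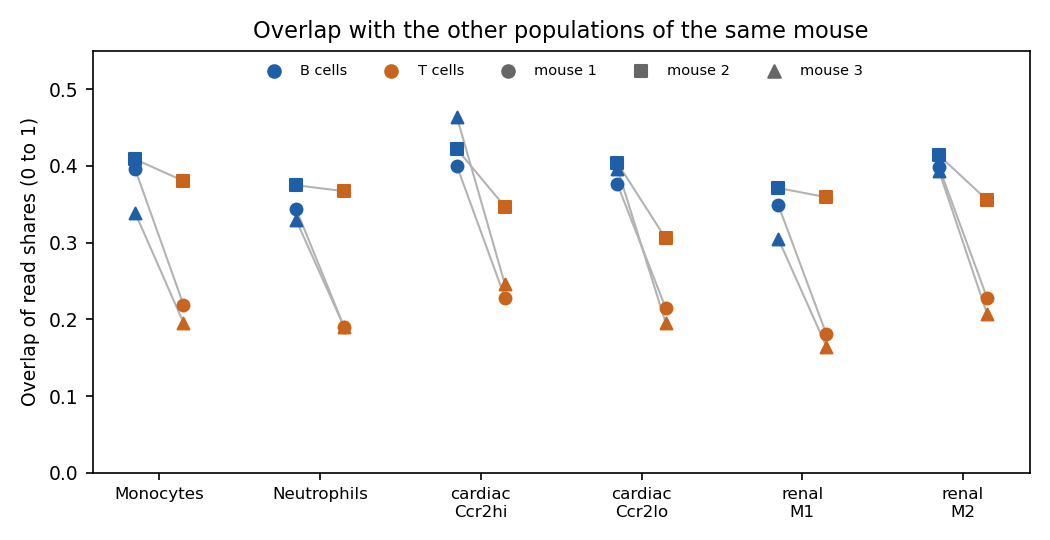
Overlap of read shares (sum of the smaller share over barcodes, scale 0 to 1) of B cells (blue) and T cells (orange) with each of the other 6 populations of the same mouse. Symbols are mice and lines join B and T cells of a mouse; every line falls towards T cells, least in mouse 2.

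B and T cells shared far more with each other within a mouse than between mice. The overlap of B with T cells was 0.355, 0.380 and 0.273 in the same mouse (mean 0.336 ± 0.0559, SD, n = 3) and 0.00837 to 0.0179 in the 6 pairings of different mice (mean 0.0124). The difference was 0.323 (exact one-sided permutation of the mouse numbers, p = 0.167, the smallest that 6 assignments allow).

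Set beside the blood myeloid pair, the lymphoid pair was little alike. The mean overlap of B and T cells was 0.336 ± 0.0559, while monocytes and neutrophils of the same mouse overlapped by 0.888, 0.928 and 0.904, a mean of 0.907 ± 0.0203 (SD, n = 3 each, exact two-sided permutation p = 0.1). Barcodes at 0.1% or more in either were within 4-fold in 19.3% ± 7.33 of cases for B and T cells, and in 96.6% ± 5.86 for monocytes and neutrophils (exact p = 0.1). The sets differ, with 190, 145 and 138 barcodes for the lymphoid pair and 69, 55 and 47 for the myeloid pair. Of the lymphoid barcodes at 1% or more, 15 of 44, 13 of 45 and 8 of 27 were within 4-fold. The tests against the myeloid pair were added after the values were seen and are not among the 16 adjusted together.

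Some barcodes were large in lymphoid cells of more than 1 mouse. Those at 0.1% or more in B or T cells of a pair of mice numbered 10, of which 3 were m3T1, m3T2 and m3T3, at 0.138% to 0.142% in T cells of mouse 2. Of the other 7, 4 were over 4-fold higher in B cells in both mice, 2 were B-sided in 1 mouse and T-sided in the other, and 1 was B-sided in 1 mouse and even in the other. Among all barcodes compared, 52.6%, 54.5% and 74.6% were B-sided in mice 1, 2 and 3. Whether a barcode keeps its lean between mice beyond these shares was not tested. The even one held 0.461% of the reads in B cells and 0.534% in T cells in mouse 1, but 3.34% and 0.661% in mouse 3. One of opposite lean held 0.114% of the reads in B cells and 1.37% in T cells in mouse 1, and 0.237% and 0.00196% in mouse 3. The other held 0.217% and 1.62% in mouse 2, and 0.118% and 0.00300% in mouse 3.

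A test of single barcodes across the mice made no call. Of 1049 barcodes with enough reads, edgeR's quasi-likelihood test called 0 (0.0%) at an adjusted p under 0.05, with 63 at an unadjusted p under 0.05 and a smallest adjusted p of 0.439. DESeq2 was given the same 1049 barcodes, gave an adjusted p for 73 of them and called 18, all higher in B cells. With the mouse as a replicate block edgeR called 0. Of the 1049, 678 reached 0.01% in a lymphoid sample of 1 mouse, 36 in 2 and 18 in 3, and 317 in none. Since most barcodes occur in 1 mouse, this test bears on few of the barcodes described above. The 18 that DESeq2 called averaged 0.00144% to 0.162% of B cell reads.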

How the data were processed

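The deposited files hold 1 sample each, a 52-base barcode and its read count per line. The counts are whole numbers and not normalised, per the file headers and values. The authors' trimming, filtering and counting steps are not given in the sources used here. Per the labels' protocols, barcodes were amplified in 18 PCR cycles and 9 to 11 index cycles. The labels give no batch. The members and lists were chosen with earlier results of these data known.

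Shares are counts over the total of the sample (6808221 to 15745444 reads). Barcodes were named in each mouse by these rules: the 3 highest in B cells, the 3 highest in T cells and, at a mean of 0.2% or more over both, the 2 most one-sided each way and the 1 nearest to even; others were chosen after their values were seen. Summary measures were compared by exact permutation over samples, with Benjamini-Hochberg adjustment over 16 tests (Python 3.11.15, numpy 2.4.6, scipy 1.17.1). Same-numbered samples come from the same mouse by their titles, and B and T cells overlapped by 0.336 within a mouse number and by 0.0124 across them; the numbers thus pair the samples. Single barcodes were tested with edgeR 4.0.16 (TMM, filterByExpr, quasi-likelihood, R 4.3.3) and DESeq2 1.42.0 as an alternative. The tests were tried on simulated data first. No pair among the 6 lymphoid files was equal within sampling noise. Alternatives were equal depth (9757036 reads, or 6808221 where other populations entered), merging barcodes 1 mismatch from one at least 10 times as abundant, barcodes of 10 reads or more, alternating barcodes only, removal of barcodes with a 100-fold or more higher share in another mouse, other thresholds and indices, the mouse as a block, and leaving out each mouse. Integration sites were not analysed.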

Additional observations from a re-analysis of the deposited data

How the results depend on the processing

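Over the 16 permutation tests, 178 of 187 alternative values kept their direction, 9 reversed, and the smallest p was 0.1. The exact paired sign flips (replicate block) left every value as it was, such as the 3.08-fold number of barcodes, with p = 0.25 or more, the smallest they allow. They change only the p, so their values, which are counted among the 178, could not reverse. The share of private barcodes in macrophages, B minus T, was -3.70 without barcodes of other mice and -0.813 with presence at 0.001%, and -3.75 to 16.9 with 1 mouse left out, the negative value being without mouse 2. The share in blood myeloid cells was -15.5 with presence at 0.001% and -3.32 with 1% of the other lymphoid sample subtracted, an alternative added after the data were seen. The private ratio was 0.339 at 1% and under 0.1%, and gave no value at 0.1% and under 0.001%, where T cells had none; it was 57.8 at 0.01% and under 0.001%, 5.47 and 12.3 with private set at under 5% and under 2% of the own share (added after the data were seen), 40.2 without mouse 2 and 20.7 without mouse 3, against 26.0. By the Jaccard index, bounded by the numbers of barcodes as given above, B minus T was -0.0712 for monocytes, -0.187 for neutrophils and -0.0902 for M1 macrophages. The number of barcodes was 1.69-fold and the difference in shared reads -12.1 with presence at 0.001%, and 2.01-fold and -14.0 at 0.1%. Counts of fold classes moved with the limits that define them. Barcodes within 4-fold averaged 31.3 per mouse, against 14.3 within 2-fold, 55 within 8-fold, 97 with 0.1% added and 12 at 1% or more. B-sided ones averaged 94, against 37 with 0.1% added and 10.3 at 1% or more, and T-sided ones 32.3, against 16.3 at 1% or more. The edgeR test called 0, also with the replicate block, and DESeq2 18. Other causes of these changes were not tested. The leading barcodes are known to within 0.0396 percentage points by depth, and 3 mice set the precision.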
